A study of Mus musculus with 4 samples.

Results

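The genes described here are the translation initiation and elongation factors of the mouse: the eIF1 to eIF6 families, the eEF1 and eEF2 families with their kinase and methyltransferases, and the cytoplasmic poly(A)-binding proteins. Members were taken by symbol. Every probe set of the array with 1 gene symbol beginning in Eif1 to Eif6, Eef1, Eef2 or Pabpc and a digit was kept, apart from the sex-linked pair Eif2s3x and Eif2s3y. That gave 119 probe sets for 53 genes, out of 20380 probe sets with 1 symbol for 12393 genes. For 31 of the 53 genes more than 1 probe set was present, and the brightest stood for the gene. Of the 53, 49 were bright enough to be tested, among 8675 genes tested in all.

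The samples were whole lungs of mouse embryos, hybridised to Affymetrix oligonucleotide arrays, with 2 wild-type lungs and 2 Sftpc-Nmyc lungs. The titles place all 4 lungs at embryonic day 18. The design text gives E18.5 for the transgenic embryos and names no age for the wild type, so an age difference between the groups cannot be told apart from the transgene. The transgene is a mouse Nmyc1 cDNA fused to EGFP behind a 3.7 kb promoter of the human SFTPC gene, which is active in lung epithelium. The construct was injected into fertilised F2 eggs of C57BL/6J and DBA/2J mice, and the design text counts 4 transgenic embryos without saying which of them gave the arrays. The genetic background of the wild-type lungs is not given. The design text calls the duplicates biological replicates and does not mention pooling of embryos. The RNA came from all cells of the lung, so a lower signal from fewer cells of a type and one from less RNA per cell cannot be told apart.

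Translation starts when eIF2 brings the initiator tRNA to the small ribosomal subunit, where eIF1, eIF1A, eIF3 and eIF5 take part in scanning for the start codon. The eIF4 factors bind the cap of the mRNA and unwind its leader, and the poly(A)-binding proteins join its tail to the cap complex. In elongation eEF1A delivers aminoacyl-tRNA, the eEF1B subunits recharge it with GTP, and eEF2 moves the ribosome along. MYC family proteins bind the E-box CACGTG, and genes of protein synthesis are among the best known MYC targets.

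Promoter windows were searched for CACGTG, since the transgene encodes a factor of the family that binds it. The windows run from 250 bases before to 50 bases after each annotated start in the RefSeq table of GRCm38.p6. CACGTG is its own reverse complement, so both strands are read at once. Of the 53 members 41 had a window, and 11 of the 41 (26.8%) held the E-box, against 2187 of all 27025 genes of the table (8.09%). Among tested genes the box was held by 10 of 38 members (26.3%) and by 849 of all 7027 genes with a window (12.1%). The runs below are printed 5′ to 3′ on the gene's strand with the box in capitals, and were chosen to show that it stood before members that were higher, lower or not called. In Eif4e, which encodes the cap-binding protein and was higher, the annotated start was preceded by a pair of boxes, 228 and 64 bases upstream, inside chr3:138527028-138527057 (plus strand) and chr3:138527192-138527221 (plus strand). Eif5a, also higher, had boxes at chr11:69920791-69920820 (minus strand) and chr11:69921443-69921472 (minus strand), 178 and 74 bases before annotated starts of different transcripts. The box of the eIF3 subunit gene Eif3f, higher too, began 68 bases before the start inside chr7:108934335-108934364 (plus strand). That of Eif4h, a cofactor of the eIF4A helicase and lower, began 96 bases before the start inside chr5:134639488-134639517 (minus strand). Eef2 and the helicase gene Eif4a1 were not called, and held the box 43 and 189 bases before the start, inside chr10:81176576-81176605 (plus strand) and chr11:69672595-69672624 (minus strand).
Eif4e, 228 before start: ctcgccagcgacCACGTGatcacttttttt
Eif4e, 64 before start: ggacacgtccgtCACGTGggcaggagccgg
Eif5a, 178 before start: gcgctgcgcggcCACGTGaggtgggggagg
Eif5a, 74 before start: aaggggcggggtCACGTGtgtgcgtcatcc
Eif3f: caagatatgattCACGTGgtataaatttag
Eif4h: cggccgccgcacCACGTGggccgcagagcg
Eef2: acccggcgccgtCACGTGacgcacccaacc
Eif4a1: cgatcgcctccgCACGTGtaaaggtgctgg

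The other members with the box were Eif3a (higher), Eif3k, Eif1b and Eef2k (not called) and Eef1aknmt (too dim to test). In Eif3a it lay 22 bases past the annotated start. Of the 10 tested members with the box, 4 were higher and 1 lower, with a median log2 change of 0.36. Of the 28 tested members without it, 12 were higher and 0 lower, at a limma adjusted p threshold of 0.05, and the median was 0.41. At an unadjusted threshold of 0.05, 1 of the 28 was lower. Over all 8675 genes tested the shares called were 14.7% higher and 15.7% lower, and 20.6% and 21.6% at the unadjusted threshold. The difference between the medians of members with and without the box was not tested. Members with the box were also brighter, their median level at percentile 98.15, against 89.16 for those without it. Among all tested genes with a window, 19.8% of the 849 with the box and 14.3% of the 6178 without it were higher, and 10.6% and 15.4% were lower. A match says only that these letters are in the window. A second feature, a start at C followed by at least 4 pyrimidines as in mRNAs with a terminal oligopyrimidine tract, was found in 1 of 41 members with a window (Eif3f, 2.44%) and in 3.01% of all genes of the table. That count depends on the annotated base, since such tracts are lost when the start is a base off.

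The members were bright genes on these arrays. Their median level stood at the 92.8th percentile of all 12393 genes, against the 65th for all genes tested. The array medians lay between 65.5 and 70.8 signal units, and the 4 trimmed means were equal at 150.05. The highest of 27 Bacillus control probe sets reached 73.4, a guide to background. Mycn, the targeted gene, read 34.7 and 32.1 in wild type and 455 and 356 in Sftpc-Nmyc lung, and was higher (limma adjusted p = 7.3e-05). Its wild-type signals lie below that brightest control, so no fold is given. That probe set cannot separate the transgene's mouse cDNA from the endogenous gene.

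Of the 49 tested members, 21 were higher in Sftpc-Nmyc lung (42.9%) and 3 lower (6.12%), while 25 did not pass the threshold. Over all genes tested 14.7% were higher and 15.7% lower. These calls use limma with Benjamini-Hochberg adjustment over all 8675 genes. Without quantile normalization, on the deposited scaling, 23 members were higher and 2 lower, beside 14.9% and 16.2% of all genes. The median log2 change of the members was 0.36, against -0.02 for all genes tested. Against the wild-type mean, the median member stood 0.33 higher on each transgenic array, on the log2 scale. Of the 49, 39 had a positive change (79.6%, against 48.5% of all genes). The wild-type and transgenic values did not overlap for 37 members (75.5%), against a background of 68.1%, a share near that background. Changes of at least 2-fold passed in 4 members that were higher (8.16%) and 1 that was lower (2.04%), against 5.53% and 6.02% of all genes tested, so the share of large rises was near the background.

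**Figure D1:**
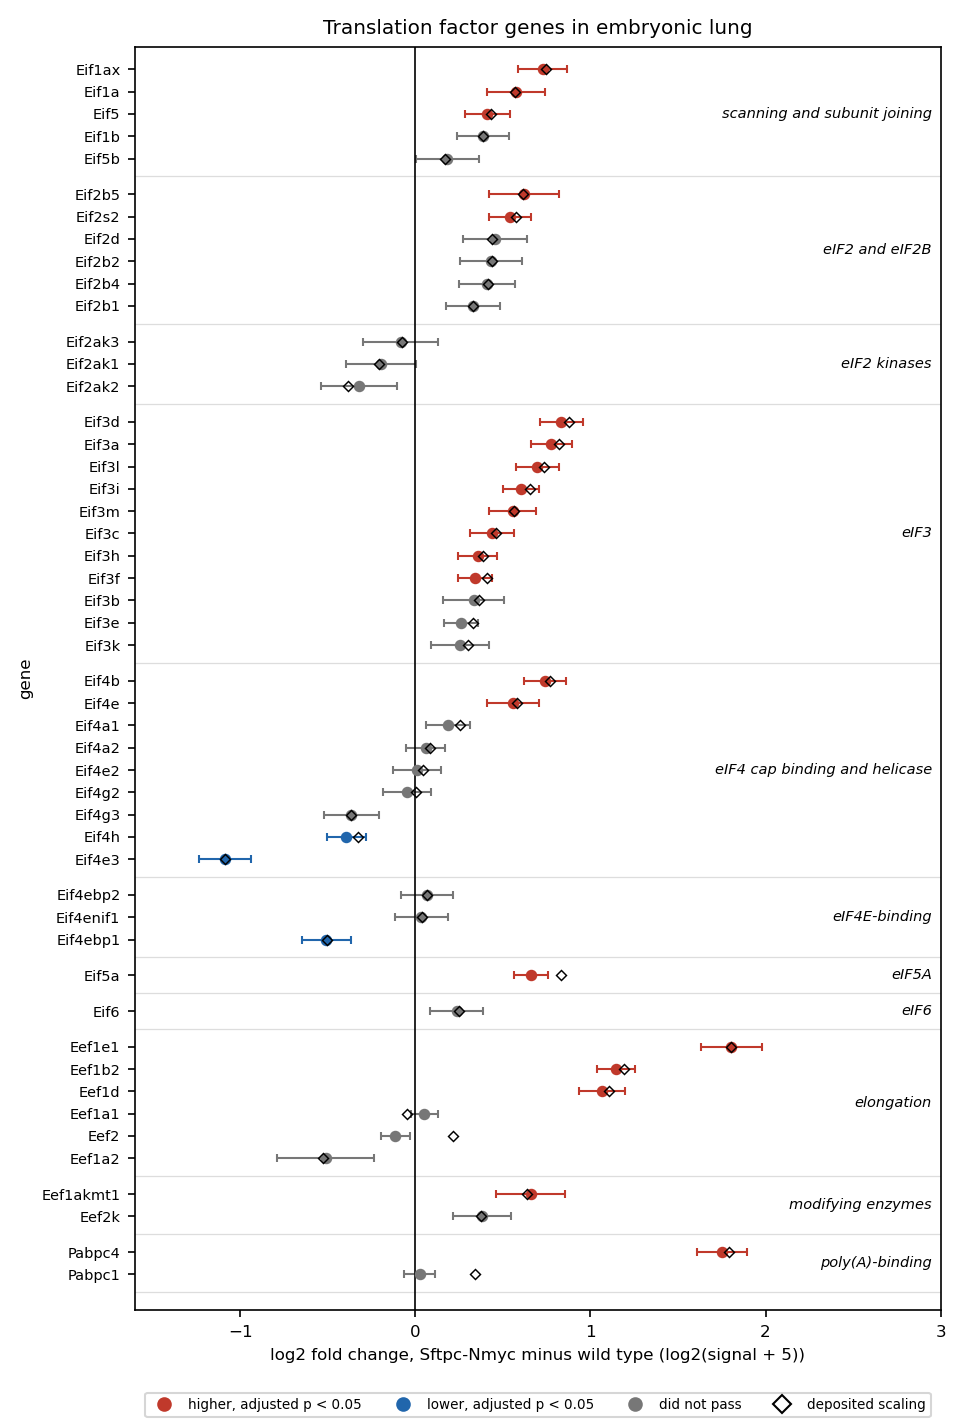
The log2 fold change of each of the 49 tested translation factor genes, Sftpc-Nmyc minus wild type, is drawn as a point with its limma standard error, grouped by role, with the value on the deposited scaling as a diamond. The 21 genes called higher lie right of 0 and the 3 called lower left of it, and Pabpc4, Eef1e1, Eef1b2 and Eef1d lie beyond 1.

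Cell type markers moved between the groups together with these genes. All 7 tested proliferation genes were higher, their summed normalized signal running from 1654 to 2462 in wild type and from 5118 to 5361 in Sftpc-Nmyc lung. Of 10 epithelial markers 5 were higher, among them Epcam at 1.48, and 2 lower, the surfactant genes Sftpc (from 9566 and 9546 in wild type to 5788 and 4817) and Sftpb (from 4516 and 4792 to 887 and 591), with list sums from 18160 to 19064 in wild type and from 11794 to 12514 in Sftpc-Nmyc lung. All 8 endothelial markers were lower, with sums from 6149 to 6962 in wild type and from 2276 to 2324 in Sftpc-Nmyc lung. Of 8 mesenchymal markers 6 were lower, and their sums ran from 18102 to 18615 and from 9014 to 10695. The lower markers also took in 3 of 7 tested for macrophages, both tested erythroid markers, the skeletal muscle gene Ckm and the neuronal gene Stmn2. The other 7 skeletal muscle and 7 neuronal markers were too dim to test. What these shifts contribute to the signals of the translation factors was not tested. The lungs also differed in sex markers, Xist reading 1708 and 1506 in wild type and 59.3 and 63.9 in Sftpc-Nmyc lung and Eif2s3y 3.1 and 0.8 in wild type and 58.0 and 61.7 in Sftpc-Nmyc lung, so sex cannot be told apart from genotype. Eif2s3x, the X-linked gamma subunit of eIF2, stood at 0.28 ± 0.12 and did not pass (limma adjusted p = 0.12).

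Each group held 2 arrays, so a fit without 1 array leaves a single array in a group and less precision. A call lost in such a fit need not have rested on the array left out. Leaving out each array in turn, 10 of the higher calls and 1 of the lower passed every time, and 11 higher and 2 lower calls were lost without at least 1 array. The 11 that passed were Pabpc4, Eef1e1, Eef1b2, Eef1d, Eif5a, Eif3a, Eif3d, Eif3i, Eif3l, Eif4b and, among lower genes, Eif4e3. Fitting without a trend of variance on mean ended 7 higher and 2 lower calls. Testing genes of any brightness ended 6 higher and 1 lower. All of these lay within the 13 just counted. Calls over all genes went from 1276 higher and 1360 lower to 1087 and 1165 without the trend, and 1026 and 1043 at any brightness. For 16 of the 24 called members another probe set was tested. In 15 of the 16 every other probe set had a change of the same sign, and in 13 another probe set was itself called the same way. In 0 was another called the opposite way by limma (0 also at an unadjusted threshold of 0.05). Probe sets of a gene read the same RNA samples, so their agreement does not replicate the group difference. The matching shares over all called genes were not computed. Over all 102 tested probe sets of the members, 40 were higher and 5 lower. The background was 13.5% higher and 12.9% lower among all probe sets tested. In the fit over probe sets, those standing for Eif5, Eif2b5 and Eif3h did not pass (limma adjusted p = 0.053, 0.057 and 0.054). All of these were called higher in the fit over genes.

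**Figure D2:**
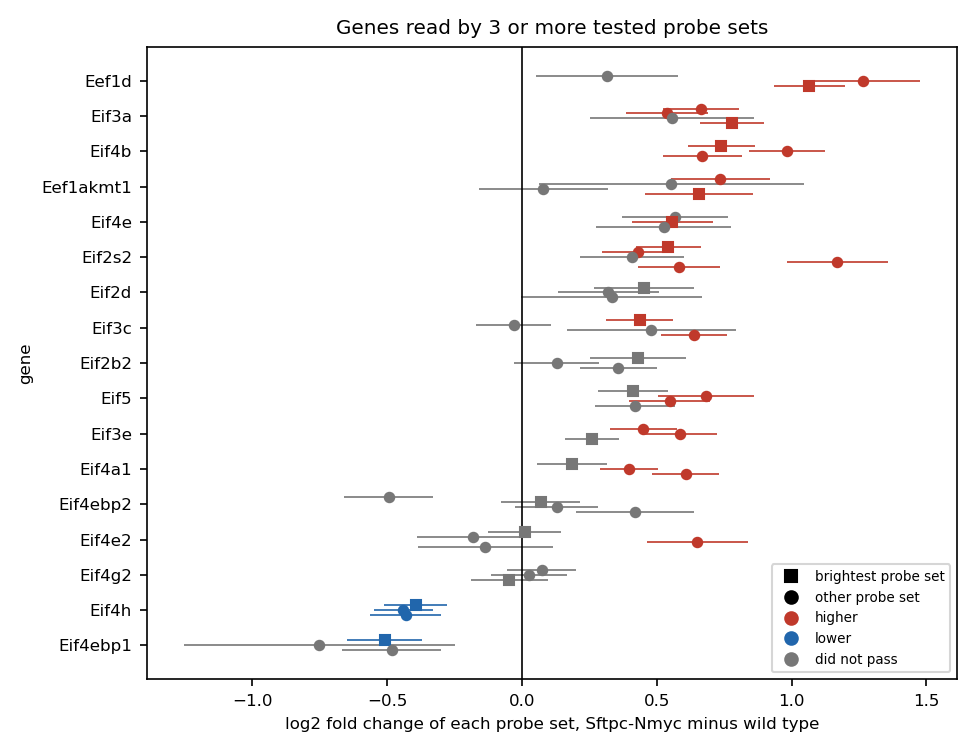
Each point is a probe set of the 17 translation factor genes with at least 3 tested probe sets, placed by its log2 fold change (Sftpc-Nmyc minus wild type). Red marks a limma call of higher, blue a call of lower and grey no call, and a square marks the brightest probe set of a gene. The probe sets of Eif4b, Eif3a and Eif2s2 all lie right of 0 and those of Eif4h all lie left of it, while those of Eif4ebp2 spread from -0.49 to 0.42. Calls are from the fit over probe sets, where the square of Eif5 was not called although the gene was.

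The eEF1B subunits analysed here and a related protein had the clearest elongation changes. Eef1b2, the guanine nucleotide exchange subunit of eEF1, read 1211 and 1266 in wild type and 2732 and 2939 in Sftpc-Nmyc lung. Eef1d, a further exchange subunit, read 540.3 and 536 in wild type and 1091 and 1243 in Sftpc-Nmyc lung. Both transgenic lungs stood above both wild-type lungs by a margin of several times the gap between duplicates. The log2 changes were 1.14 ± 0.11 for Eef1b2 (limma adjusted p = 0.00053) and 1.06 ± 0.13 for Eef1d (limma adjusted p = 0.0013). Eef1e1, named as an elongation factor but known as a scaffold protein of the multi-tRNA synthetase complex, read 131 and 101 in wild type and 429 and 399.5 in Sftpc-Nmyc lung. Its groups were also far apart, with a change of 1.81 ± 0.17 (limma adjusted p = 0.00054). In Eef1d a dimmer probe set gave 1.27 and the dimmest 0.31, the latter not passing and with signals below the brightest control.

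The genes of eEF1A, which the eEF1B subunits serve, and of eEF2 had no call. Eef1a1, which carries aminoacyl-tRNA to the ribosome and is the brightest member, read 10464 and 9924 in wild type and 10304 and 9451 in Sftpc-Nmyc lung. Its groups overlapped, and the log2 change was 0.05 after quantile normalization and -0.05 on the deposited scaling (limma adjusted p = 0.65 and 0.71). Eef1a2, its muscle and neuron form, read 189 and 139 in wild type and 147 and 83.3 in Sftpc-Nmyc lung, where 1 transgenic lung lay within the wild-type range. That change, -0.51 ± 0.28, did not pass (limma adjusted p = 0.2), except without transgenic replicate 1, where limma's adjusted p was 0.042. Among muscle markers, all 7 tested cardiac markers were lower. Their summed normalized signal ran from 1835 to 3011 in wild type and from 350 to 581 in Sftpc-Nmyc lung. The skeletal muscle and neuronal lists had only 1 tested gene each. The part of these markers in the Eef1a2 values was not tested. Eef2, the translocase, read 5038 and 4967 in wild type and 5948 and 5689.7 in Sftpc-Nmyc lung. Its deposited signals were higher in both transgenic lungs, yet its log2 change turned sign with the scaling, -0.11 after quantile normalization and 0.22 on the deposited scaling, passing on neither (limma adjusted p = 0.34 and 0.094).

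Among the enzymes that modify elongation factors, Eef1akmt1, a lysine methyltransferase of eEF1A, was higher. It read 94.6 and 80.9 in wild type and 122 and 158 in Sftpc-Nmyc lung, without overlap, a change of 0.66 ± 0.20 (limma adjusted p = 0.039). The call was lost when any array other than transgenic replicate 1 was left out (limma adjusted p up to 0.22), and with the mean of its probe sets (0.15). Eef2k, the kinase that inactivates eEF2, read 128 and 126 in wild type and 177 and 156 in Sftpc-Nmyc lung and did not pass (0.38 ± 0.17, limma adjusted p = 0.12). The methyltransferases Eef1aknmt, at 2.5 and 8.1 in wild type and 43.2 and 62.3 in Sftpc-Nmyc lung, and Eef2kmt, at 10.4 and 9.8 in wild type and 9.4 and 12.4 in Sftpc-Nmyc lung, were too dim to test. Eif5a, the hypusine-bearing factor that helps the ribosome past prolines, was among the most stable calls. It read 2269 and 2481 in wild type and 4135 and 4305 in Sftpc-Nmyc lung, with no overlap between groups. Its log2 change was 0.66 ± 0.10 (limma adjusted p = 0.0024), and 0.83 on the deposited scaling.

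The eIF3 complex, the large scaffold on the small ribosomal subunit, had the most calls of any role. Of 11 measured subunits 8 were higher (72.7%, against 14.7% of all genes tested) and 0 lower by limma. The median log2 change was 0.44, all 11 values lying above 0 from 0.26 to 0.83. At an unadjusted threshold of 0.05 limma gave 9 higher and 0 lower. On the deposited scaling 9 were higher. Eif3a, the core scaffold subunit, read 668 and 648 in wild type and 1166 and 1168 in Sftpc-Nmyc lung. Eif3d, a subunit that can bind the cap itself, read 558 and 621 in wild type and 1061 and 1107 in Sftpc-Nmyc lung. The duplicates lay close together and the groups well apart in both, with changes of 0.78 ± 0.12 and 0.83 ± 0.12 (limma adjusted p = 0.0027 and 0.0026). Eif3i read 1572 and 1520.1 in wild type and 2404 and 2468 in Sftpc-Nmyc lung and changed by 0.61 ± 0.10 (limma adjusted p = 0.0043). Eif3l read 626 and 661 in wild type and 1123 and 1032 in Sftpc-Nmyc lung and changed by 0.70 ± 0.12 (limma adjusted p = 0.0046). In both, each transgenic lung was above each wild-type lung. With the mean of a gene's probe sets the Eif3l call ended at a change of 0.68 (limma adjusted p = 0.053).

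The other 4 eIF3 calls were smaller and less secure. They were Eif3m at 0.56 ± 0.13, Eif3c at 0.44 ± 0.13, Eif3h at 0.36 ± 0.11 and Eif3f at 0.34 ± 0.10. The calls of Eif3m, Eif3c and Eif3f were lost whichever array was left out (limma adjusted p = 0.054 to 0.091, 0.078 to 0.16 and 0.074 to 0.14). That of Eif3h held only without transgenic replicate 2 (p up to 0.16). Averaging probe sets ended the calls of Eif3m, Eif3c and Eif3h, at changes of 0.49, 0.38 and 0.10 (limma adjusted p = 0.11, 0.082 and 0.79). The probe sets of Eif3c differed: 1 further probe set was higher at 0.64, another stood at -0.03 with signals of 439 and 489 in wild type and 437 and 479 in Sftpc-Nmyc lung. Of the 3 subunits that did not pass, Eif3e read 2470.4 and 2458 in wild type and 3249 and 2959 in Sftpc-Nmyc lung, without overlap. Its change was 0.26 ± 0.10 (limma adjusted p = 0.074). It passed on the deposited scaling (0.33, limma adjusted p = 0.042), and 2 dimmer probe sets were higher at 0.45 and 0.59. Eif3b, a core subunit, and Eif3k, a peripheral subunit, stood at 0.33 ± 0.17 and 0.26 ± 0.17 (limma adjusted p = 0.18 and 0.28). Each passed when 1 transgenic array was left out, Eif3b without replicate 2 and Eif3k without replicate 1 (limma adjusted p = 0.037 and 0.041), and reached 0.74 and 0.96 without another array.

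**Figure D3:**
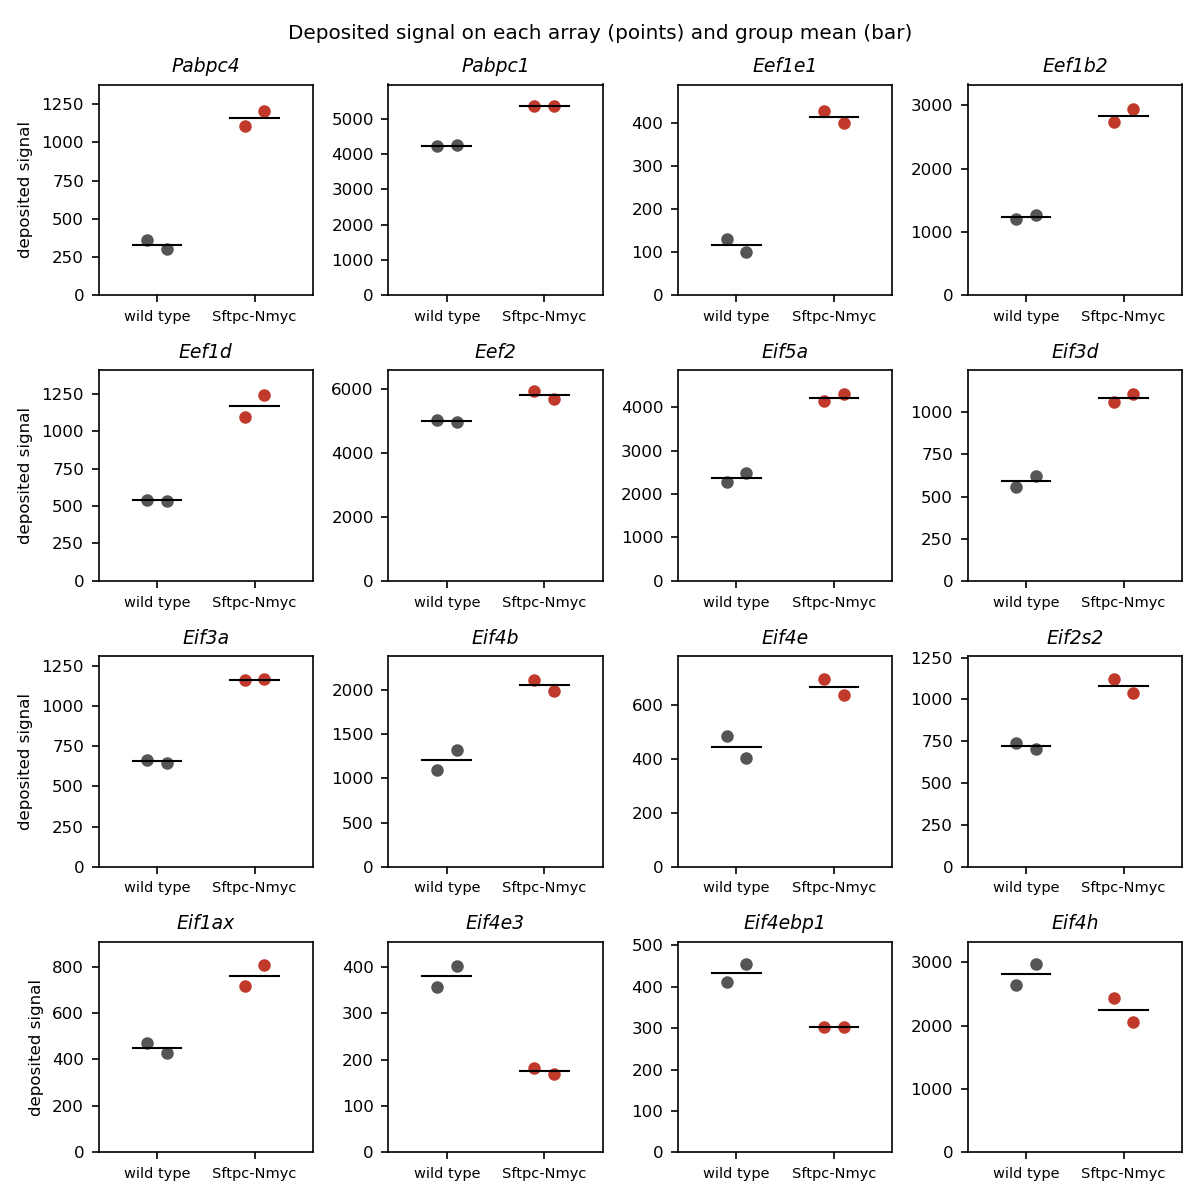
Deposited signals of 16 translation factor genes are plotted for each of the 2 wild-type and 2 Sftpc-Nmyc arrays as points, with the group mean as a bar, on axes that start at 0. The groups do not overlap in any of the 16, Eif4e3, Eif4ebp1 and Eif4h being lower in Sftpc-Nmyc lung and the others higher in deposited signal. The 16 were picked for display, mostly from called members, so the lack of overlap is no separate result. After quantile normalization 68.1% of all genes tested did not overlap, while Pabpc1 did and Eef2 changed by -0.11.

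Of the 5 scanning factors 3 were higher and 0 lower by limma (4 and 0 at an unadjusted threshold of 0.05), with a median of 0.41. The share of 60% higher stood beside 14.7% of all genes tested. Eif1ax, the X-linked gene of eIF1A, which binds the ribosomal A site during scanning, read 471 and 429.5 in wild type and 715 and 806 in Sftpc-Nmyc lung. Its near-identical copy Eif1a read 184 and 154 in wild type and 271 and 236 in Sftpc-Nmyc lung. Neither gene's groups overlapped, and the changes were 0.73 ± 0.14 (limma adjusted p = 0.0068) and 0.57 ± 0.17 (limma adjusted p = 0.034). Probe sets of so similar a pair can share signal, so the copies are uncertain as separate genes. The Eif1ax call was lost without wild-type replicate 2 (limma adjusted p = 0.058), and the Eif1a call whichever array was left out (0.064 to 0.16). Eif5, which triggers GTP hydrolysis by eIF2, read 693 and 610.3 in wild type and 889 and 872 in Sftpc-Nmyc lung. It changed by 0.41 ± 0.13 (limma adjusted p = 0.046), a call also lost whichever array was left out (limma adjusted p = 0.073 to 0.21). Eif1b, a form of eIF1, read 326 and 287 in wild type and 381 and 424 in Sftpc-Nmyc lung and did not pass (0.39 ± 0.15, limma adjusted p = 0.087). Eif5b, which joins the ribosomal subunits, read 113 and 140.0 in wild type and 139 and 145 in Sftpc-Nmyc lung, the smallest change of the role at 0.18 ± 0.18 (limma adjusted p = 0.48). The gene of eIF1 itself was not analysed here.

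For the carrier of the initiator tRNA and its exchange factor, 2 of 6 were higher and 0 lower by limma. The share of 33.3% higher stood beside 14.7% of all genes tested. At an unadjusted threshold of 0.05 the counts were 5 and 0. The median was 0.44, with all 6 values above 0. Eif2s2, the beta subunit of eIF2, read 738 and 706 in wild type and 1124 and 1037 in Sftpc-Nmyc lung, without overlap. The change was 0.54 ± 0.12 (limma adjusted p = 0.012), 3 of its 4 other probe sets were called higher, and the call held only without transgenic replicate 2 (p up to 0.077). Eif2b5, the catalytic subunit of the exchange factor eIF2B, read 149 and 208 in wild type and 295 and 251 in Sftpc-Nmyc lung. Its groups did not overlap, but the wild-type lungs differed, and the change of 0.62 ± 0.20 (limma adjusted p = 0.049) was called only with all arrays or without wild-type replicate 2 (p up to 0.23). Of the other eIF2B subunits, Eif2b1, Eif2b2 and Eif2b4 stood at 0.33, 0.43 and 0.41 and did not pass. Eif2b3 of eIF2B and Eif2s1 of eIF2 were not analysed here. Eif2b1 had the smallest change, from 188 and 209 in wild type to 259.6 and 241 in Sftpc-Nmyc lung. Eif2d, a factor that can deliver tRNA to the ribosome outside the eIF2 route, stood at 0.45 ± 0.18 and did not pass either (limma adjusted p = 0.098).

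The kinases that phosphorylate eIF2 and so slow initiation had 0 of 3 calls by limma (0 also at an unadjusted threshold of 0.05). Eif2ak1, the heme-regulated kinase, stood at -0.19 ± 0.20, Eif2ak2, the double-stranded RNA kinase, at -0.32 ± 0.22, and Eif2ak3, the endoplasmic reticulum stress kinase, at -0.08 ± 0.21. The limma adjusted p-values were 0.49, 0.3 and 0.8. Their median, -0.19, was the lowest among the roles, and the standard errors were at least as large as the changes in Eif2ak1 and Eif2ak3. For Eif2ak2 3 of the 4 signals lay below the brightest control. Eif2ak3, the member nearest 0, read 238 and 173 in wild type and 224 and 166 in Sftpc-Nmyc lung. Eif2ak4, the amino acid sensing kinase, read 9.9 and 26.6 in wild type and 41.7 and 58.3 in Sftpc-Nmyc lung. It was too dim for the test of genes. In the fit over probe sets its probe set had a positive change and did not pass (limma adjusted p = 0.054). All its signals lay below the brightest control, so no fold is given.

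The cap-binding and helicase factors went in both directions, with 2 of 9 higher, 2 lower and a median of 0.01. Those shares, 22.2% higher and 22.2% lower, stood beside 14.7% and 15.7% of all genes tested. Eif4b, which stimulates the helicase eIF4A, read 1101 and 1317 in wild type and 2119.7 and 1995 in Sftpc-Nmyc lung. Eif4e, the cap-binding protein, read 487 and 404 in wild type and 696 and 636 in Sftpc-Nmyc lung. In each case the transgenic lungs were both above the wild type, with changes of 0.74 ± 0.12 (limma adjusted p = 0.0036) and 0.56 ± 0.15 (limma adjusted p = 0.026). Both other tested probe sets of Eif4b were called too, whereas those of Eif4e had the same size of change without passing, and the Eif4e call held only without wild-type replicate 1 (p up to 0.15).

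The lower members lay in this role and the next. Eif4e3, an atypical member of the cap-binding family, read 357 and 401 in wild type and 181 and 169.7 in Sftpc-Nmyc lung. Its transgenic signals were below either wild-type signal by more than the gap between duplicates, and the change was -1.09 ± 0.15 (limma adjusted p = 0.0019), kept whichever array was left out. Its dimmer probe set gave -0.51 and did not pass. Eif4h read 2649 and 2978 in wild type and 2436 and 2053 in Sftpc-Nmyc lung, without overlap, a change of -0.39 ± 0.11 (limma adjusted p = 0.032). Both of its other tested probe sets were lower too. Its call ended on the deposited scaling (-0.33, limma adjusted p = 0.077). It ended as well when any array other than transgenic replicate 1 was left out (up to 0.16).

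Eif4ebp1, a repressor that holds eIF4E away from eIF4G until mTOR phosphorylates it, read 411 and 455 in wild type and 304 and 303 in Sftpc-Nmyc lung. The groups did not overlap and the change was -0.51 ± 0.14 (limma adjusted p = 0.029). Its other 2 tested probe sets also had negative changes without passing, 1 of them at signals below the brightest control, and the call was lost whichever array was left out (0.073 to 0.14). Eif4ebp2, a second repressor of the family, read 247 and 238 in wild type and 245 and 264 in Sftpc-Nmyc lung, a change of 0.07 ± 0.15 that did not pass (limma adjusted p = 0.76). Its other tested probe sets ranged from -0.49 to 0.42, so the sign depended on the probe set. Eif4enif1, which carries eIF4E into the nucleus, stood at 0.04 (limma adjusted p = 0.88).

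Eif4a1 and Eif4a2 encode the helicase that unwinds mRNA leaders. Eif4a1 read 2453 and 2076 in wild type and 2569.9 and 2817 in Sftpc-Nmyc lung and stood at 0.19 ± 0.13 (limma adjusted p = 0.3). Its 2 dimmer probe sets were higher at 0.40 and 0.61, and the mean of its probe sets passed (limma adjusted p = 0.025), so the call depends on which probe set stands for the gene. Eif4a2 read 1465 and 1450.2 in wild type and 1616 and 1477 in Sftpc-Nmyc lung and stood at 0.06 (limma adjusted p = 0.72). Eif4e2, a cap-binding protein that represses translation, read 613 and 551 in wild type and 620.1 and 578 in Sftpc-Nmyc lung and stood at 0.01, although 1 of its dimmer probe sets was higher at 0.65. Eif4g2 and Eif4g3, members of the eIF4G family, stood at -0.05 ± 0.14 and -0.36 ± 0.16 (limma adjusted p = 0.83 and 0.11). Eif4g2 read 2214 and 1737 in wild type and 1972 and 1959 in Sftpc-Nmyc lung, and Eif4g3 read 328 and 393 in wild type and 288 and 267 in Sftpc-Nmyc lung. Eif6, which keeps the ribosomal subunits apart, read 407 and 499 in wild type and 507 and 567 in Sftpc-Nmyc lung and did not pass (0.24 ± 0.15, limma adjusted p = 0.28). Eif4g1 and Eif5a2 were not analysed here.

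Of the poly(A)-binding proteins, Pabpc4, known as the inducible form, had one of the largest changes. It read 359 and 303 in wild type and 1104 and 1208 in Sftpc-Nmyc lung. Both transgenic signals stood far above both wild-type signals, with a log2 change of 1.75 ± 0.14 (limma adjusted p = 0.00037), and its other probe set gave 2.18. Pabpc1, the main form in most cells, read 4238 and 4249 in wild type and 5379 and 5367 in Sftpc-Nmyc lung. Its deposited signals did not overlap, and on the deposited scaling it was higher (0.34, limma adjusted p = 0.021). After quantile normalization the groups overlapped and the change was 0.03 (limma adjusted p = 0.86). Pabpc2, a testis form whose sequence is close to that of Pabpc1, read 13.6 and 9.4 in wild type and 35.7 and 18.9 in Sftpc-Nmyc lung and was too dim to test.

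**Figure D4:**
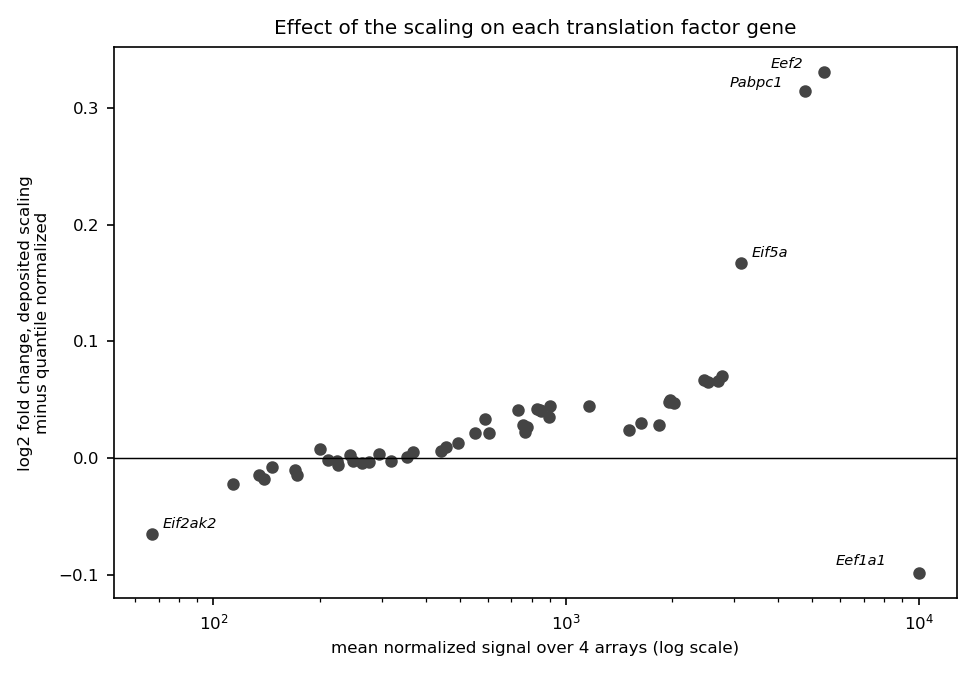
For each of the 49 tested translation factor genes, the log2 fold change on the deposited scaling minus that after quantile normalization is plotted against the mean normalized signal on a log scale. Most genes lie near 0, while Eef2, Pabpc1 and Eif5a, among the brightest, lie highest and Eef1a1, the brightest, lies lowest.

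The scaling mattered most for the brightest members. Quantile normalization gives each array the same distribution, so the value of a very bright gene is set by its rank. Eef1a1 thus had the same normalized signal, 9823.7, on both wild-type arrays and transgenic replicate 2. Eef2 had 5194.7 on both transgenic arrays. The spread between duplicates behind the limma p-values of these genes was therefore set by rank too. The median over all genes tested was -0.02 after it and -0.04 without it, a shift below 0.1. The plot of the scaling effect shows that Eef2 and Pabpc1 differed most between the scalings and Eif5a next. Pabpc1 gained a call on the deposited scaling and Eef2 and Eef1a1 changed sign, so the call of Pabpc1 and the signs of Eef2 and Eef1a1 are not settled here. Among the rest, Eif4g2, at a change near 0, changed sign as well.

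Related genes were set against each other within arrays, as the difference of their log2 values, in 5 pairs. With 2 arrays a group an exact permutation test, two-sided, cannot go below p = 0.333. The difference of changes was -1.72 for Pabpc1 against Pabpc4, 0.56 for Eef1a1 against Eef1a2, 0.55 for Eif4e against Eif4e2, and -0.58 for Eif4ebp1 against Eif4ebp2. In these 4 pairs the groups did not overlap, which gives the lowest possible value (exact permutation p = 0.333, adjusted 0.416), so the test cannot decide. The share of other gene pairs without overlap was not computed. The changes of Pabpc1 and Eef1a1 also depended on the scaling. For Eif4a1 against Eif4a2 it was 0.13 and the groups overlapped (exact permutation p = 0.667).

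Other genes of translation were read from lists of partners and regulators. Over all 60 tested genes, 14 were higher and 1 lower by limma (23.3% and 1.67%, against 14.7% and 15.7% of all genes tested), with a median of 0.17. At an unadjusted threshold of 0.05 they were 20 and 2 (33.3% and 3.33%, against 20.6% and 21.6%). In the release, helper and modifying lists the unadjusted count of lower genes was 0 as well. Of 8 release and recycling factors 3 were higher and 0 lower. Abce1, the ATPase that splits ribosomes after termination, led these at 1.16 ± 0.17 (limma adjusted p = 0.0025), with signals of 208 and 166 in wild type and 469 and 387 in Sftpc-Nmyc lung. Denr, a recycling and reinitiation factor, rose by 0.94 ± 0.16, and Gspt1, the release factor eRF3, by 0.76 ± 0.16 (limma adjusted p = 0.0041 and 0.0093). Without wild-type replicate 2 the Gspt1 call was lost (0.066). Of 11 helpers of initiation 3 were higher and 0 lower, namely Ncbp2 at 0.96 ± 0.15, a nuclear cap-binding subunit, Pdcd4 at 0.92 ± 0.14, an inhibitor of eIF4A, and Larp1 at 0.68 ± 0.15, which binds terminal oligopyrimidine mRNAs. Pdcd4 read 366 and 327 in wild type and 673 and 659.9 in Sftpc-Nmyc lung, so both the helicase cofactor Eif4b and this inhibitor were higher. The Larp1 call was lost without wild-type replicate 2 or transgenic replicate 2 (p up to 0.083).

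Of 11 mTOR and MNK genes 0 were higher and 1 lower by limma (1 and 1 at an unadjusted threshold of 0.05), with a median of -0.11. These shares were 0% and 9.09%, against 14.7% and 15.7% of all genes tested. The lower gene was Tsc2, a repressor of mTORC1, at -0.75 ± 0.15 (limma adjusted p = 0.0093), with signals of 249 and 265 in wild type and 145 and 156 in Sftpc-Nmyc lung. Its call was lost without wild-type replicate 2 (0.06). Of 14 genes of the eIF2 stress response 2 were higher and 0 lower (2 and 1 unadjusted), with a median of -0.09. The share of higher genes, 14.3%, was near the 14.7% of all genes tested. Asns, the asparagine synthetase, was higher at 1.56 ± 0.16 (limma adjusted p = 0.00069) and Abcf1, a partner of eIF2, at 0.68 ± 0.17 (limma adjusted p = 0.022). The Abcf1 call was lost without transgenic replicate 2 or wild-type replicate 1 (up to 0.12). The response's own factors Atf4, Ddit3 and Trib3 stood at 0.10, -0.66 and -0.84 and did not pass, the latter pair with transgenic signals below the brightest control. Of 6 enzymes that modify translation factors 2 were higher (33.3%) and 0 lower. Dph6, of the diphthamide route on eEF2, changed by 0.87 ± 0.20, and Dohh, which completes hypusine on eIF5A, by 0.50 ± 0.16 (limma adjusted p = 0.015 and 0.046). Dph6 was lost without transgenic replicate 1 or wild-type replicate 2, and Dohh whichever array was left out.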

How the data were processed

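RNA of 4 whole embryonic lungs (2 wild type, 2 Sftpc-Nmyc) was purified and biotin-labelled with kits, per the labels' protocols. As deposited, each array holds linear intensities for 22690 probe sets, 64 of them controls. The summary and scaling software is not given in the sources used here, but all arrays have the same mean of 150.05 after trimming 2% at each end. Names come from the platform annotation, and all 53 member symbols were found in the RefSeq gene table of GRCm38.p6. The 6 probe sets that name a member beside another gene were left out.

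Values were floored at 1, an offset of 5 was added, log2 was taken, and arrays were quantile normalized over non-control probe sets. Fold changes are on that log2 scale, which understates those of dim genes. The brightest probe set stood for a gene, and genes below the 30th percentile of mean signal were not tested. limma 3.58.1 in R 4.3.3 (eBayes with trend) compared the groups, with group as the only term and Benjamini-Hochberg adjustment over all genes tested at a threshold of 0.05. A value after ± is the standard error from limma (median 0.14 over the members, n = 2 arrays a group). Signals named for single arrays are the deposited ones. With 2 arrays a group the number of arrays limits the precision. Python 3.11.15 made the counts and read promoter windows.

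Members, roles and lists were chosen with earlier results of these data known. Named were all members by role, with signals on each array for the called members among the 4 leading ones of a role, the member going most against its role and related pairs, plus up to 3 called genes of each other list. Called genes outside that rule are named with their change only. Alternatives were offsets of 1 and 32, no filter and a 50th percentile filter, deposited scaling, the mean of probe sets, eBayes without trend, a replicate block and leaving out each array.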

Additional observations from a re-analysis of the deposited data

How the results depend on the processing

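Across the 12 alternatives, 10 of the 24 called members kept their call each time (9 higher, 1 lower). The count of higher members, 21, was 14 with eBayes without trend, 16 with no filter, 18 with the mean of probe sets, 23 on the deposited scaling, and 11 to 14 when an array was left out. Over all genes tested, 1249 were higher and 1256 lower with the mean of probe sets, against 1276 and 1360 with the brightest probe set. Calls over all genes, higher and lower, also became fewer whenever an array was left out. The smaller member counts in those fits are therefore not particular to the members. The count of lower members, 3, was 1 with eBayes without trend, where all genes called lower went from 1360 to 1165. The replicate numbers are not said to pair lungs, and same-numbered arrays did not deviate together (r = -0.0425 across genes). With a replicate block 15 members were higher and 1 lower, beside 1084 and 1134 of all genes tested. The median of 0.36 was 0.38 on the deposited scaling, 0.38 with the mean of probe sets, 0.38 with no filter, 0.34 with an offset of 32, and 0.33 to 0.37 when an array was left out. Some changes near 0 turned sign. On the deposited scaling Eef1a1 was at -0.046, Eef2 at 0.22 and Eif4g2 at 0.0029. Leaving out arrays moved Eif2ak1 between -0.41 and 0.020, Eif2ak3 between -0.30 and 0.14, Eif4a2 between -0.0013 and 0.12, Eif4e2 between -0.079 and 0.098, Eif4enif1 between -0.077 and 0.15, Eif4g2 between -0.24 and 0.14, and Pabpc1 between -0.022 and 0.072. The cause was not tested. Signal over background limits the 4 dim members, whose highest signal was below the brightest control.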

Other observations

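Factors of neighbouring translation systems were also measured. Of 5 tested mitochondrial translation factors 2 were higher in Sftpc-Nmyc lung (40%, against 14.7% of all genes tested) and 0 lower by limma. At an unadjusted threshold of 0.05 the counts were 3 and 0, and the median log2 change was 0.52. Gfm1, the mitochondrial elongation factor G, read 77.1 and 113 in wild type and 170.2 and 151 in Sftpc-Nmyc lung (0.77 ± 0.22, limma adjusted p = 0.033). Mtif2, the mitochondrial initiation factor 2, read 108 and 121 in wild type and 159.5 and 181 in Sftpc-Nmyc lung (0.56 ± 0.17, limma adjusted p = 0.04). Neither pair of groups overlapped, but the Mtif2 call was lost whichever array was left out (0.077 to 0.18) and the Gfm1 call when any array other than wild-type replicate 2 was left out (up to 0.14). Of 5 tested genes of selenocysteine insertion 2 were higher (40%) and 0 lower (2 and 0 unadjusted), with a median of 0.33. Eefsec, the elongation factor that delivers selenocysteine, read 46.4 and 64.2 in wild type and 121 and 119.6 in Sftpc-Nmyc lung (limma adjusted p = 0.009). Its wild-type signals lie below the brightest control, 73.4, so no fold is given. Sephs2, which makes selenophosphate, read 101 and 104 in wild type and 202 and 188 in Sftpc-Nmyc lung (0.91 ± 0.16, limma adjusted p = 0.0053). Both were higher in each transgenic lung, and both calls passed with each array left out.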
